A study of Mus musculus with 18 samples.

Results

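The L1Md subfamilies are the mouse-specific branch of LINE-1 (L1), the autonomous retrotransposon family that still moves in the mouse genome. All subfamilies of the deposited repeat tables whose name starts with L1Md_ were taken, which gave 6 of 906 repeat subfamilies: L1Md_T, L1Md_A, L1Md_Gf, L1Md_F, L1Md_F2 and L1Md_F3. All 6 passed the filter on low values. They were followed across 18 RNA-seq libraries of E14Tg2a mouse embryonic stem cells (ESCs), 3 replicates in each of 6 groups. Both genotypes, wild type and Daxx knockout (Daxx-null), were grown in each of 3 cultures. The first was serum medium supplemented with LIF, leukaemia inhibitory factor, at 1000 units/mL. The second was 2i with vitamin C (100 µg/mL), a serum-free medium with LIF and inhibitors of GSK3 and MEK that holds cells in the ground state. The third was retinoic acid, in which cells from serum culture spent 24 h without LIF and then 4 days without LIF in 10 µM retinoic acid, a neural differentiation. The knockout is a single derived line next to its parent, so clone and genotype cannot be told apart. The labels name independent replicates but not how they were separated, so each p-value reflects only the spread among these samples, which may be technical.

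A full-length L1 carries an internal promoter in its 5′ end and encodes an RNA-binding protein and an endonuclease with reverse transcriptase, which copy its RNA back into the genome. The T, Gf and A subfamilies hold the elements with intact reading frames and recent activity, while the F subfamilies are relatives held to be mostly inactive. In ESCs such elements are held down by DNA methylation, by H3K9 methylation laid down through Setdb1 and Trim28, and by the HUSH complex. Daxx is the chaperone that, with Atrx, deposits the histone variant H3.3 at repeats and silent chromatin. Ground-state medium with vitamin C lowers DNA methylation, in part through the Tet enzymes. The study asked how loss of Daxx alters gene and repeat RNA in these 3 cultures.

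The values are FPKM as the authors scaled them, per copy and per mean length, relative to a separate set of reads in repeats. A value is therefore a share of the repeat reads and not an amount of RNA. The repeat read set held 8.04 to 18.96 M counting units (M stands for mega) per library and the gene read set 84.2 to 141.7 M, both worked out from the smallest increments of low values. The repeat set amounted to 10.5 to 12.2% of the gene set in wild-type serum, 11.1 to 12.2% in Daxx-null serum, 12.6 to 15.8% and 13.4 to 18.9% in wild-type and Daxx-null 2i, and 6.97 to 7.68% over both retinoic acid groups. Daxx itself, which checks the labels, fell from 326 ± 24.0 to 71.5 ± 2.58 FPKM in serum, from 420 ± 16.5 to 56.0 ± 1.58 in 2i and from 248 ± 14.9 to 61.7 ± 0.962 in retinoic acid (SD, n = 3). Its log2 changes were -2.18, -2.89 and -2.00. The labels do not say what part of the gene was deleted, and reads remained in the knockout. Summed RNA of 8 pluripotent cell markers was 25963 to 32456 FPKM over the serum groups and 567 to 934 over the retinoic acid groups. Sox2 alone was at 483 to 881 FPKM in the retinoic acid libraries. Replicate 2 of Daxx-null 2i stood apart, with 9793 FPKM of these markers against 19568 and 16554, with 387 FPKM of 7 fibroblast markers against 64.8 and 63.3, and with 1976 FPKM of 10 retinoic acid and neural markers against 441 and 419. Replicate 3 of wild-type 2i had 20.2 FPKM of the fibroblast markers against 105 and 95.6. RNA of 4 Y-linked genes summed to 2.18 to 2.74 FPKM in Daxx-null serum and 1.28 to 2.59 in Daxx-null retinoic acid, but to 183 to 245 in Daxx-null 2i and 156 to 359 over the wild-type libraries. Low Y-linked RNA therefore moved with the Daxx-null genotype in 2 of the 3 cultures, and its part in the results below was not tested.

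The subfamilies differ in age and in bulk. Divergence, the authors' column for the share of bases by which copies differ from their consensus, was 0.036 for L1Md_A, 0.037 for L1Md_T, 0.054 for L1Md_F3, 0.068 for L1Md_F2 and 0.075 for L1Md_Gf. These were the 5 lowest of 112 L1 subfamilies. L1Md_F, at 0.136, tied for rank 15 and is young by name more than by divergence. Mean copy lengths were 2330 bp for Gf, 2054 for T, 1968 for A, 1558 for F, 1122 for F2 and 909 for F3, all shorter than a full-length element. Copies numbered 65451 for F2, 23234 for T, 16293 for A, 15614 for F3, 5937 for F and 994 for Gf. Together they cover 179 Mb of mm9, of which F2 alone makes up 41.0%, T 26.7% and A 17.9%. Each row of the tables carries a single mm9 position for its subfamily although the value covers all copies, for example chromosome 15, 30017488 to 30025189, plus strand for L1Md_T and chromosome X, 25710997 to 25711883, minus strand for L1Md_Gf. Single copies, and hence exons, introns or intergenic sites, are not resolved by these values. Counts behind the values were large: L1Md_T rested on 99988 to 2068466 units per library and L1Md_A on 35194 to 1557286. L1Md_Gf, with few copies, rested on 1036 to 74488.

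L1Md_T is the most abundant of the 6 in units in 5 of the 6 groups. In wild-type serum its replicates were at 2.38, 2.81 and 2.17 FPKM, and in Daxx-null serum at 7.14, 6.43 and 6.77. In wild-type 2i they were at 19.2, 19.0 and 10.8, and in Daxx-null 2i at 18.8, 16.4 and 23.9. In retinoic acid the wild-type libraries were at 3.08, 2.94 and 3.26 and the Daxx-null libraries at 2.61, 2.10 and 2.15. The 2i libraries of both genotypes were thus the highest and overlapped each other, Daxx-null serum lay between them and the rest, and wild-type serum overlapped Daxx-null retinoic acid at the bottom.

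L1Md_A had 4.16, 4.61 and 3.30 FPKM in wild-type serum and 10.6, 8.77 and 8.98 in Daxx-null serum. In 2i it had 20.1, 19.2 and 11.4 in wild type and 19.3, 17.9 and 26.8 in Daxx-null cells. After retinoic acid it had 1.42, 1.38 and 1.49 in wild type and 1.52, 1.24 and 1.11 in Daxx-null cells. Its order of groups was the same at the top, but here both retinoic acid groups lay below wild-type serum and overlapped each other.

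L1Md_Gf had 1.39, 1.61 and 1.17 FPKM in wild-type serum and 4.01, 3.73 and 3.92 in Daxx-null serum. In 2i it had 14.6, 14.3 and 7.80 in wild type and 9.22, 11.3 and 17.7 in Daxx-null cells. After retinoic acid it had 0.960, 0.945 and 1.26 in wild type and 0.557, 0.506 and 0.465 in Daxx-null cells. Daxx-null retinoic acid was the lowest group, and wild-type retinoic acid overlapped wild-type serum just above it.

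The 3 F subfamilies moved within a much narrower band. L1Md_F ran from 0.687 to 1.90 FPKM over the 18 libraries, L1Md_F3 from 0.722 to 1.89 and L1Md_F2 from 0.820 to 1.42. Daxx-null 2i had the highest mean for each of them, at 1.65 ± 0.227, 1.74 ± 0.171 and 1.34 ± 0.101 FPKM (SD, n = 3). In L1Md_F it overlapped wild-type 2i, while in F2 and F3 it lay above every other group.

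**Figure D1:**
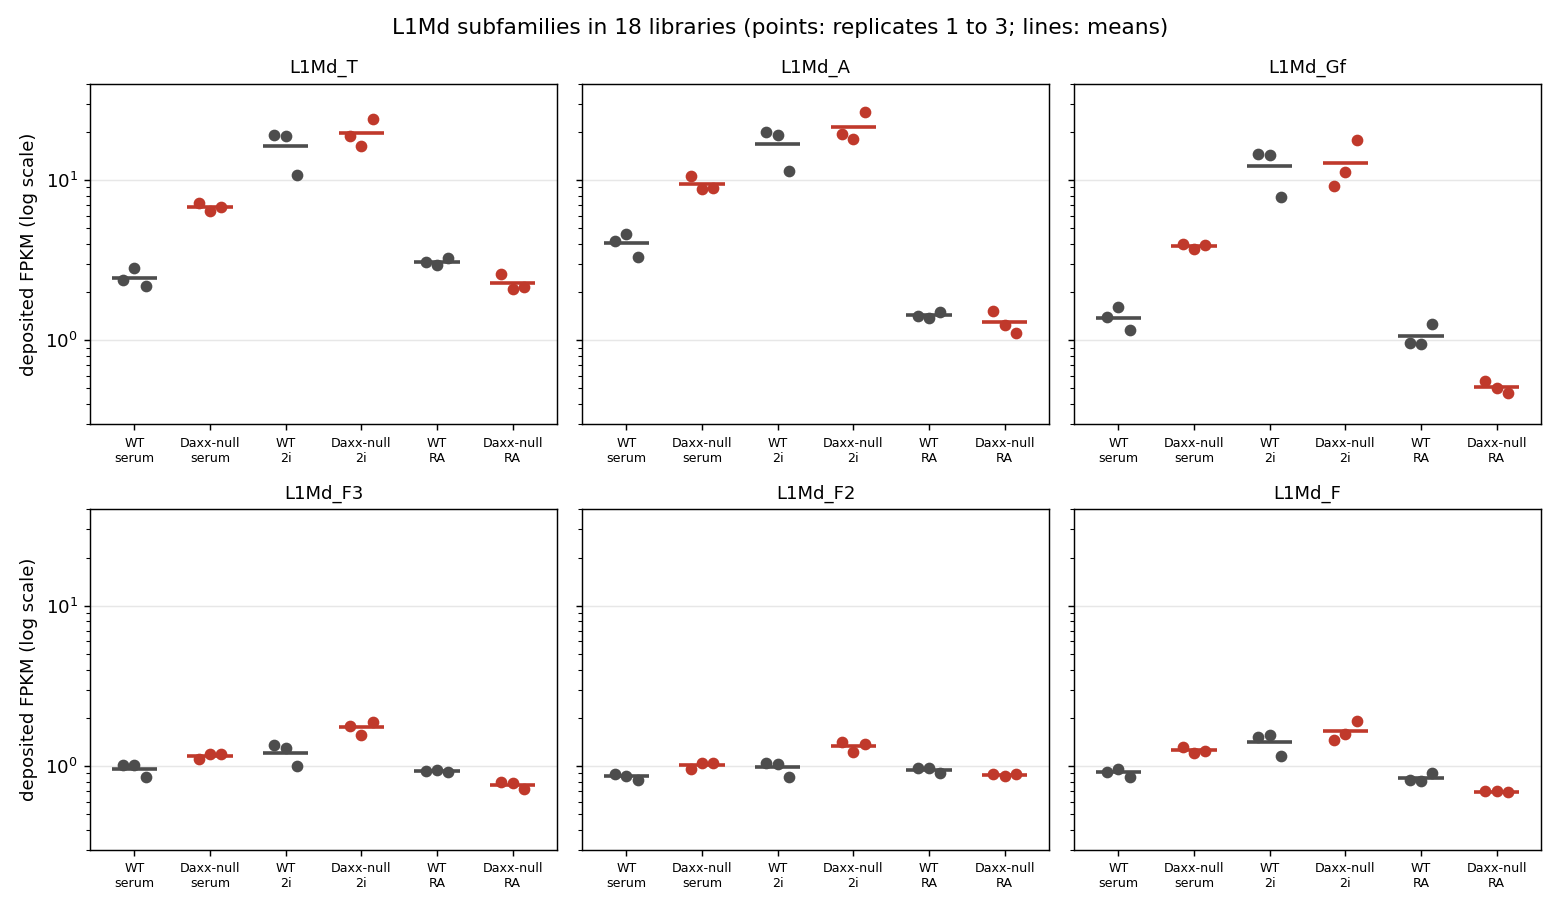
FPKM (log axis) of each L1Md subfamily in the 18 libraries, wild type in grey and Daxx-null in red, with points for replicates 1 to 3 and lines for group means. L1Md_T, L1Md_A and L1Md_Gf span more than a decade with both 2i groups at the top, whereas L1Md_F, F2 and F3 stay between 0.687 and 1.90 FPKM.

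Summed over the 6 subfamilies, L1Md reads were 3.70, 4.10 and 3.25% of the listed repeat units in wild-type serum and 8.64, 7.64 and 7.91% in Daxx-null serum. In 2i they were 18.2, 17.8 and 10.8% in wild type and 17.8, 16.2 and 23.0% in Daxx-null cells. In retinoic acid they were 3.30, 3.20 and 3.37% and then 2.96, 2.56 and 2.56%. L1Md reads were 28.0 ± 2.50% of all LINE units in wild-type serum and 47.2 ± 1.36% in Daxx-null serum. The same share was 66.4 ± 8.23% and 70.7 ± 5.05% in wild-type and Daxx-null 2i, and 21.4 ± 0.616% and 18.8 ± 1.23% in retinoic acid (SD, n = 3). Set against the gene read set instead, the sums were 3789 ± 616 units per M gene units in wild-type and 8699 ± 135 in Daxx-null serum. They were 21818 ± 8097 and 29873 ± 10654 by genotype in 2i. After retinoic acid they came to 2160 ± 39.0 and 1675 ± 111. The order of the group means was the same on both scales. In bulk RNA, a change in the number of cells that express L1Md and a change in RNA per cell cannot be told apart.

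**Figure D2:**
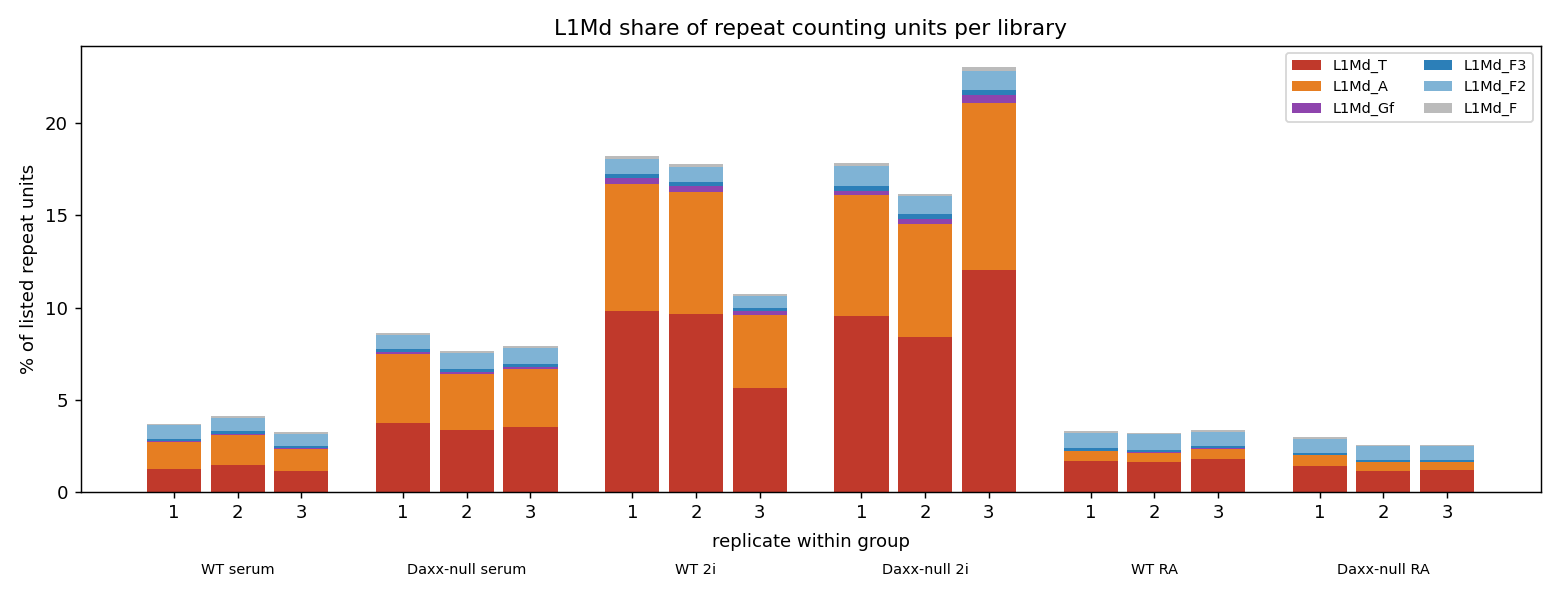
Share of listed repeat counting units taken by each L1Md subfamily, stacked, per library and group. L1Md_T and L1Md_A make up most of every bar, the sum is 3.25 to 4.10% in wild-type serum and 7.64 to 8.64% in Daxx-null serum, and replicate 3 of wild-type 2i reaches only 10.8%.

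The composition within L1Md also shifted. L1Md_F2, with 41.0% of the L1Md bases in the genome, gave 19.0 ± 1.73% of L1Md units in wild-type serum, 10.1 ± 1.07% in Daxx-null serum and 5.16 ± 1.06% in wild-type 2i. L1Md_T rose in the same 3 groups from 35.0 ± 1.23% to 43.9 ± 0.642% and 53.5 ± 1.15%, against 26.7% of the bases. L1Md_A stayed at 38.4 ± 1.96%, 41.0 ± 1.86% and 37.3 ± 0.376% there, but was 16.0 ± 0.238% in wild-type and 17.6 ± 1.47% in Daxx-null retinoic acid (SD, n = 3). These shares were compared by their spread only, with no test.

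In serum, L1Md RNA took a larger share of repeat reads in Daxx-null than in wild-type cells, and the T, A and Gf subfamilies rose by the largest factors among the 6. T and A made up most of the L1Md units, whereas Gf gave 0.957 ± 0.038% of them in wild-type and 1.22 ± 0.039% in Daxx-null serum (SD, n = 3). L1Md_T rose 2.76-fold in mean FPKM, by 1.30 on the log2(FPKM + 0.526) scale (SE 0.182, adjusted p = 4.6e-04 by limma). L1Md_A rose 2.35-fold (log2 1.14, SE 0.194, adjusted p = 0.00234), and L1Md_Gf 2.80-fold (log2 1.21, SE 0.225, adjusted p = 0.00375). L1Md_F rose 1.38-fold (log2 0.31, SE 0.0879, adjusted p = 0.0436). L1Md_F3 and L1Md_F2 had log2 differences of 0.18 and 0.15 that did not pass (adjusted p = 0.173 and 0.162). So 4 of 6 members were called higher and 0 lower, where 3.59% of the 864 subfamilies tested were called higher and 7.29% lower. In all 6 members every Daxx-null value lay above every wild-type value, which held in that direction for 10.4% of the subfamilies tested. The median member change was 0.72, and the median of all subfamilies was -0.10, against which T, A and Gf were 1.40, 1.24 and 1.32 higher. The call of L1Md_F was lost without any one of the 6 serum libraries (adjusted p up to 0.138), with a pseudocount of 2 and on the scale of the gene read set (0.226). Those of T, A and Gf were kept under all 17 alternatives, the gene read set included, where their log2 changes were 1.36, 1.20 and 1.27. Repeats of the rRNA class took 10.95 to 13.8% of the listed repeat units in wild-type and 6.57 to 8.42% in Daxx-null serum, without overlap. As a share of transposon reads, which leaves rRNA out, T, A and Gf had log2 changes of 1.21, 1.05 and 1.13 and were still called (adjusted p = 3.6e-04, 0.00202 and 0.00241 by limma).

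Scaling changes the balance of all subfamilies in this comparison, since 33.0% of those called were higher with the deposited values, 52.3% once libraries were quantile-normalized, 63.9% with median-ratio scaling and 16.8% as a share of transposon reads. Y-linked RNA was low in each of the Daxx-null serum libraries, as given above. The retinoic acid and neural markers (10 of 10 in the files) summed to 544 to 568 FPKM in Daxx-null and 578 to 648 in wild-type serum. Primitive endoderm markers (7 genes) summed to 18.3 to 21.3 and 55.6 to 73.0 FPKM, and the 7 fibroblast markers to 23.3 to 28.3 and 51.3 to 87.3. The sums of these 3 lists were thus lower in every Daxx-null than in every wild-type serum library. Per library, 1 or 2 of the endoderm genes and up to 4 of the fibroblast genes were at 0. Pax6 went the other way, at 31.0 to 33.8 FPKM in Daxx-null and 9.77 to 13.3 in wild-type serum. So did Rarb (1.31 to 1.75 and 0.427 to 1.14) and Sox7 (9.29 to 9.77 and 3.06 to 5.39). Tubb3, most of the retinoic acid and neural sum, overlapped (391 to 434 and 418 to 479). The sums of pluripotent markers (26546 to 32456 and 25963 to 26973) and 2-cell-like markers (21.0 to 40.7 and 10.1 to 31.8) overlapped between genotypes. Pou5f1 was higher in every Daxx-null library (9265 to 11171 and 7704 to 8380), as was Zfp42 (3577 to 4463 and 2921 to 3048). Tdgf1 was lower in every one (2119 to 2242 and 3163 to 3838), and the other pluripotent markers overlapped. The part of these lists in the L1Md differences was not tested.

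**Figure D3:**
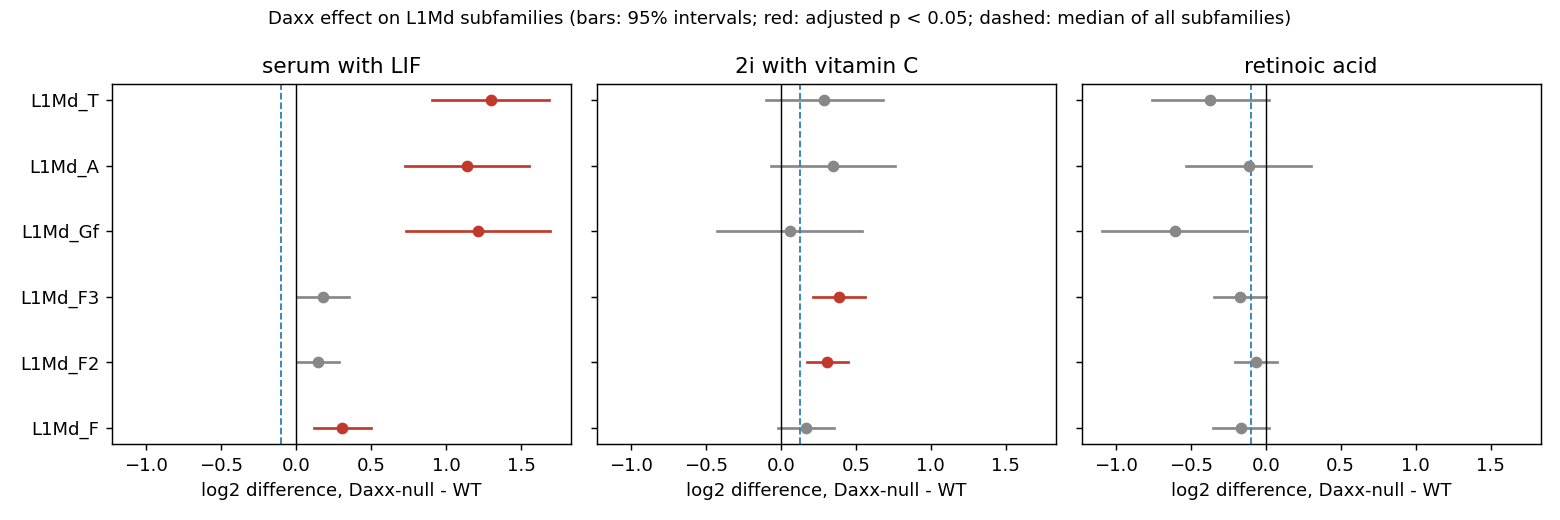
Log2 difference, Daxx-null minus wild type, of each L1Md subfamily in the 3 cultures, with 95% intervals, red where the adjusted p was under 0.05, and the median of all subfamilies as a dashed line. The intervals of T, A and Gf lie to the right of 0 in serum only, and those of F2 and F3 do so in 2i as well.

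In 2i, where L1Md levels were already high in wild type, the subfamilies that passed were others. L1Md_F3 rose from 1.34, 1.29 and 0.998 to 1.78, 1.55 and 1.89 FPKM (log2 0.39, adjusted p = 0.00457). L1Md_F2 rose from 1.05, 1.03 and 0.859 to 1.42, 1.23 and 1.37 FPKM (log2 0.31, adjusted p = 0.00447). The values of both genotypes did not overlap for these 2, while they overlapped for T, A, Gf and F. T, A, F and Gf had log2 differences of 0.29, 0.35, 0.17 and 0.06 (adjusted p = 0.267, 0.204, 0.177 and 0.878). With 2 of 6 called higher, the count is to be read against 17.8% of all subfamilies called higher and 5.44% lower, and against 26% with groups not overlapping in the higher direction. The median of all subfamilies was 0.13 here, so F3 and F2 exceeded it by 0.26 and 0.18. Both calls were lost after quantile normalization (adjusted p = 0.193 for F3 and 0.439 for F2), after median-ratio scaling (0.0534 and 0.0643) and with a fit of the 2i groups alone (0.130 and 0.140). Among the subfamilies called, 76.6% were higher with the deposited values, 30.3% under quantile normalization, 45.4% under median-ratio scaling, 89.9% on the gene read set and 64.6% as a share of transposon reads.

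The direction for L1Md_Gf in 2i rested on single libraries: its log2 difference was -0.22 without replicate 3 of wild type and -0.20 without replicate 3 of Daxx-null cells, and it turned to -0.06 after median-ratio scaling. Replicate 3 of wild-type 2i was the lowest of its group in all 6 members, and its share of rRNA among listed repeat units was 9.84%, against 5.93 and 4.55% in the other 2 replicates and 3.75 to 8.78% in Daxx-null 2i. Without it and replicate 2 of Daxx-null 2i together, an alternative chosen after seeing the data, T and A differed by 0.15 and 0.21 between genotypes and F3 and F2 by 0.36 and 0.29, with the last 2 still called (adjusted p = 0.00391 and 0.00485). The summed RNA of 7 primitive endoderm markers was 226 to 327 FPKM in Daxx-null and 38.6 to 90.8 in wild-type 2i. Markers of 2-cell-like cells (7 in the files, 2 of them at 0 in every library) summed to 68.9 to 129 and 13.6 to 39.1. Pluripotent markers summed to 9793 to 19568 in Daxx-null and 23031 to 25327 in wild-type 2i, so their sum was lower in every Daxx-null library. The part of these lists in the differences was not tested.

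After retinoic acid no L1Md subfamily was called between genotypes by limma, and 1 of 6 had an unadjusted p under 0.05. The background was low as well, with 0.116% of all subfamilies called higher and 1.04% lower. All 6 point estimates were below 0, at -0.61 for Gf, -0.37 for T, -0.17 for F3, -0.16 for F, -0.11 for A and -0.06 for F2, beside a median of -0.10 over all subfamilies. The direction of A, F, F2 and F3 turned after quantile normalization, and that of F2 after median-ratio scaling too. In 5 of 6 members the Daxx-null values lay wholly below the wild-type values, with A the exception, and 31.5% of all subfamilies did the same. The interval for L1Md_Gf ran from -1.09 to -0.125, and its adjusted p was 0.157. Primitive endoderm markers summed to 286 to 351 FPKM in Daxx-null and 517 to 934 in wild-type retinoic acid, and Y-linked RNA was low in the former. The 2-cell-like markers summed to 5.61 to 7.01 in Daxx-null and 41.7 to 58.9 in wild-type cells, and the retinoic acid and neural markers to 2791 to 3036 and 3247 to 3475. All 3 lists were lower in every Daxx-null library. The rRNA class took 7.99 to 9.23% of listed repeat units in Daxx-null and 5.25 to 5.69% in wild-type libraries, again without overlap. Pluripotent markers summed to 567 to 934 FPKM in Daxx-null and 623 to 803 in wild-type cells. Sox2 made up most of this, at 512 to 881 and 483 to 542. Pou5f1 was at 2.84 to 3.75 in Daxx-null and 13.8 to 73.9 in wild-type cells, where replicate 3 was highest. Nanog, Zfp42, Klf4, Tdgf1 and Dppa5a were likewise lower in every Daxx-null library, while Sox2 and Esrrb overlapped. The part of these values in the L1Md differences was not tested.

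The effect of Daxx loss was therefore compared between cultures directly. Daxx-null serum and 2i libraries differed in Y-linked RNA (2.18 to 2.74 and 183 to 245 FPKM). In the 2i interaction, culture and a possible difference between subclones thus cannot be told apart. In 2i the effect was smaller than in serum for L1Md_T, by 1.01 on the log2 scale (interaction of limma, difference -1.01, adjusted p = 0.0142), and for L1Md_Gf (-1.15, adjusted p = 0.0193). L1Md_A had -0.79 with an adjusted p of 0.0528, which was past the threshold in 8 of 24 alternatives, among them without replicate 3 of Daxx-null 2i (-0.96). F, F2 and F3 had differences of -0.14, 0.16 and 0.21, none of them called. These 2 of 6 lower calls compare with 4.28% of all subfamilies called lower and 17.6% higher. For T the call was lost on the scale of the gene read set (-0.92, adjusted p = 0.0858), and for Gf it was lost in 5 of 24 alternatives, with -1.01 and -1.02 without replicates 1 or 2 of wild-type 2i (0.0507 and 0.0506). Without replicate 3 of wild-type 2i all of T, A and Gf passed, at -1.27, -1.04 and -1.44 (adjusted p = 5.5e-04, 0.00616 and 0.00293). In this contrast 80.4% of the called subfamilies were higher with the deposited values, 38.7% under quantile normalization and 46.7% after median-ratio scaling.

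In retinoic acid the effect was lower than in serum for 3 of 6 members, where 1.62% of all subfamilies were called lower and 0.463% higher. The differences were -1.67 for L1Md_T (adjusted p = 0.00166), -1.82 for L1Md_Gf (0.00511) and -1.25 for L1Md_A (0.0292). L1Md_F had -0.47, F3 -0.35 and F2 -0.21 (adjusted p = 0.0673, 0.138 and 0.271). The call of T was kept in all 23 alternatives, that of Gf was lost in 2 and that of A in 13, among them the fits without each one of 10 libraries (adjusted p up to 0.0884 among these) and the gene read set (0.125). Both contrasts use the same serum libraries. Of the few subfamilies called in the retinoic acid contrast, 22.2% were higher with the deposited values, 41.2% under quantile normalization and 60.0% as a share of transposon reads.

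The T, A and Gf subfamilies took several times the share of repeat reads in 2i that they took in serum. In wild type, L1Md_Gf rose 8.81-fold from serum to 2i (log2 2.69, adjusted p = 5.1e-07), L1Md_T 6.66-fold (2.46, 1.4e-07) and L1Md_A 4.20-fold (1.91, 3.5e-06). L1Md_F rose 1.55-fold (0.42, 8.9e-04) and L1Md_F3 by 0.22 on the log2 scale with overlapping values (adjusted p = 0.0294). L1Md_F2 had a difference of 0.12 (adjusted p = 0.127). The 5 of 6 called higher stand beside 9.84% of all subfamilies called higher and 50.5% lower, with a median of -0.36, from which T, A and Gf stood 2.82, 2.27 and 3.05 apart. Values did not overlap for 4 of 6 members, beside 10.9% of all in that direction. T, A and Gf were called in all 18 alternatives. L1Md_F3 was not called in 5 of them, including without replicate 3 of wild-type serum (0.117) and without replicates 1 or 2 of wild-type 2i (0.127 and 0.106), and L1Md_F2 was called in 5, including without replicate 3 of wild-type 2i (0.18, adjusted p = 0.0242). Of all subfamilies called, 16.3% were higher with the deposited values, 41.0% under quantile normalization, 51.8% under median-ratio scaling and 46.5% on the gene read set.

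In Daxx-null cells all 6 members rose from serum to 2i, by 1.54 for Gf, 1.45 for T, 1.12 for A, 0.43 for F3 and 0.28 for both F and F2, where 17.5% of all subfamilies were called higher and 32.2% lower. The call of F was lost without replicate 2 of Daxx-null serum (adjusted p = 0.0525) or replicate 3 of Daxx-null 2i (0.0833), under quantile normalization (0.0565) and in a fit of the groups compared alone (0.0816), which also ended that of F2 (0.0564). None of the values overlapped, as was true of 18.6% of all subfamilies in that direction. Ranges of both genotypes in 2i overlapped for T, A, Gf and F, and the rise in Daxx-null cells started from a higher level in serum. Y-linked RNA was 2.18 to 2.74 FPKM in Daxx-null serum and 183 to 245 in Daxx-null 2i, and the labels do not say whether both cultures came from the same subclone. In this contrast and in the 2i interaction, culture and a possible difference between subclones therefore cannot be told apart. Between the same groups primitive endoderm markers went from 18.3 to 21.3 up to 226 to 327 FPKM and pluripotent markers from 26546 to 32456 down to 9793 to 19568, and their part was not tested. Higher calls made up 35.2% of all calls as deposited, 51.0% after median-ratio scaling and 83.2% on the gene read set.

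Retinoic acid separated the subfamilies. In wild type L1Md_A fell to 0.356 of its serum mean (log2 -1.21, adjusted p = 1.5e-04), the 1 call among 6 members, where 8.33% of all subfamilies were called lower and 50.7% higher. L1Md_Gf had a log2 difference of -0.27 (adjusted p = 0.316). L1Md_T had 0.29 (adjusted p = 0.197) and values above those of serum in each replicate, but its sign turned after median-ratio scaling (-0.03) and on the gene read set (-0.19). The fall of A was called in all 17 alternatives. In Daxx-null cells 5 of 6 members fell, A by 2.46, Gf by 2.09, T by 1.38, F by 0.55 and F3 by 0.38 on the log2 scale, where 11.5% of all subfamilies were called lower and 49.7% higher. In mean FPKM, Gf fell to 0.131 and A to 0.137 of Daxx-null serum. L1Md_F2 had a log2 difference of -0.13 (adjusted p = 0.104 by limma). All 6 had Daxx-null retinoic acid values below the serum values, as did 13.8% of all subfamilies. Of the calls in wild type 85.9% were higher with the deposited values, 46.4% under quantile normalization, 47.4% under median-ratio scaling and 25.5% on the gene read set, and in Daxx-null cells 81.2, 51.2, 46.4 and 19.2%.

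Ratios within a library do not depend on its scaling. The FPKM of L1Md_T divided by that of L1Md_A was 0.614 ± 0.0434 in wild-type serum, 0.720 ± 0.0412 in Daxx-null serum, 0.964 ± 0.0208 and 0.927 ± 0.0424 in wild-type and Daxx-null 2i, and 2.16 ± 0.0272 and 1.78 ± 0.141 in retinoic acid (SD, n = 3). The 3 cultures formed bands that did not overlap in either genotype, and the genotypes did not overlap within serum (0.573 to 0.659 in wild type, 0.674 to 0.754 in Daxx-null cells) or within retinoic acid. L1Md_Gf over L1Md_A was 0.345 ± 0.0103 in wild-type and 0.414 ± 0.0310 in Daxx-null serum. In 2i it was 0.718 ± 0.0317 and 0.590 ± 0.0993 by genotype, and after retinoic acid 0.736 ± 0.0966 and 0.398 ± 0.0286. The ratios were chosen after their values were seen and carry no test.

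**Figure D4:**
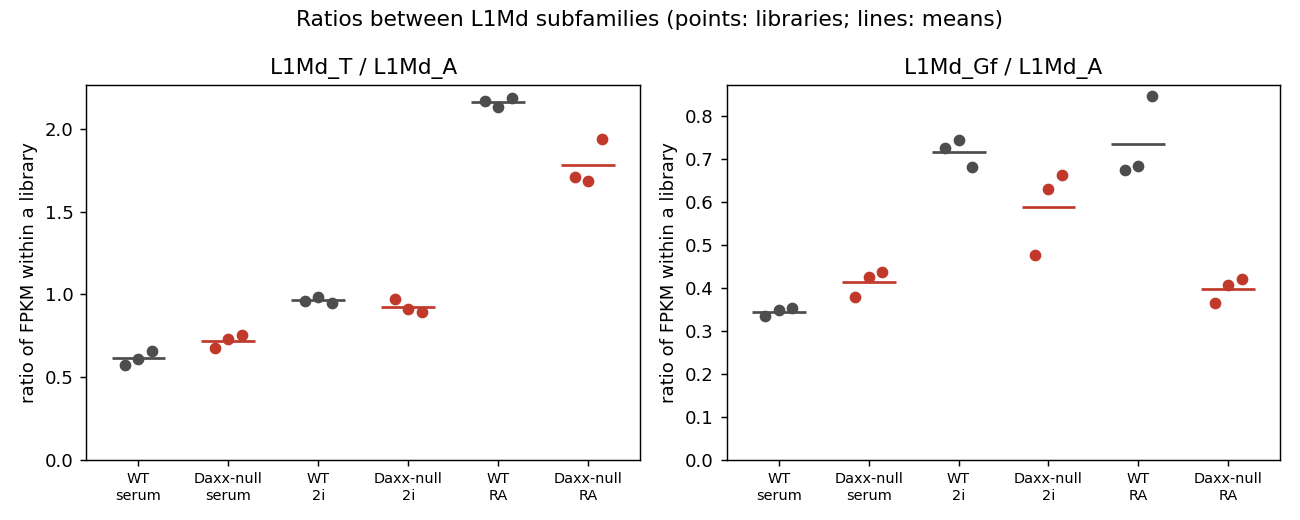
Ratio of L1Md_T to L1Md_A and of L1Md_Gf to L1Md_A in each library (linear axes from 0; points for libraries, lines for means; wild type in grey, Daxx-null in red). T over A lies between 0.573 and 0.754 in serum, between 0.893 and 0.987 in 2i and between 1.69 and 2.19 in retinoic acid.

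Most other L1 subfamilies changed much less than T, A and Gf between genotypes in serum and from serum to 2i in wild type, but some more diverged ones reached similar sizes there or in other comparisons. Of 106 non-L1Md subfamilies of the L1 family, 104 were tested. In serum 4 of them were called higher and 4 lower in Daxx-null cells, with a median of -0.08. Of all subfamilies 3.59% were called higher and 7.29% lower. The 4 higher were L1M2a (log2 0.81, adjusted p = 0.0029 by limma), L1MEb (0.65, 0.0135), HAL1 (0.37, 0.0471) and Lx2B (0.21, 0.0499). L1M3b, with 164 copies, fell by 1.10 (adjusted p = 0.00375), a size close to the rises of T, A and Gf, and fell by 1.89 from serum to 2i and by 2.54 from serum to retinoic acid in wild type. L1M3f, with 94 copies, rose by 1.92 in Daxx-null 2i (adjusted p = 3.2e-06), and its Daxx effect was 1.97 higher in 2i than in serum (1.2e-04). From serum to retinoic acid in wild type L1M6 rose by 1.90 and HAL1 fell by 1.41. L1M3b, L1M3f, L1M6 and HAL1 were singled out after their values were seen. The 5 of lowest divergence after the young members were L1_Mus1, L1_Mus2, L1_Mus3, Lx3_Mus and L1_Mm, at 0.08 to 0.11. Between genotypes in serum they had log2 differences of 0.04, 0.10, -0.17, 0.05 and -0.28. Only the last was called (adjusted p = 0.0299 by limma). From serum to 2i in wild type, 5 older subfamilies were called higher and 61 lower (median -0.29), where 9.84% and 50.5% of all subfamilies were. In that comparison the same 5 least diverged ones had 0.13, 0.24, -0.14, 0.10 and -0.02. In 2i 23 were called higher and 4 lower in Daxx-null cells (median 0.16), where 17.8% and 5.44% of all subfamilies were. After retinoic acid 0 were called higher and 2 lower, where 0.116% and 1.04% of all were. In the 2i interaction 20 older subfamilies were called higher and 3 lower, where 17.6% and 4.28% of all were. The 3 lower were L1M2a (-1.06), HAL1 (-0.90) and Lx2B (-0.44). In the retinoic acid interaction 0 were called higher and 2 lower, L1M2a (-1.13) and Lx2B (-0.38). As a description across subfamilies, which share libraries and overlap in sequence, Spearman's rho between divergence and the log2 change from serum to 2i was -0.49 over 110 L1 subfamilies and -0.40 without the L1Md members. For the Daxx effect in serum it was -0.30 and -0.20. Longer subfamilies had higher changes in the same comparisons (rho 0.51 and 0.36 with mean length over 110).

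**Figure D5:**
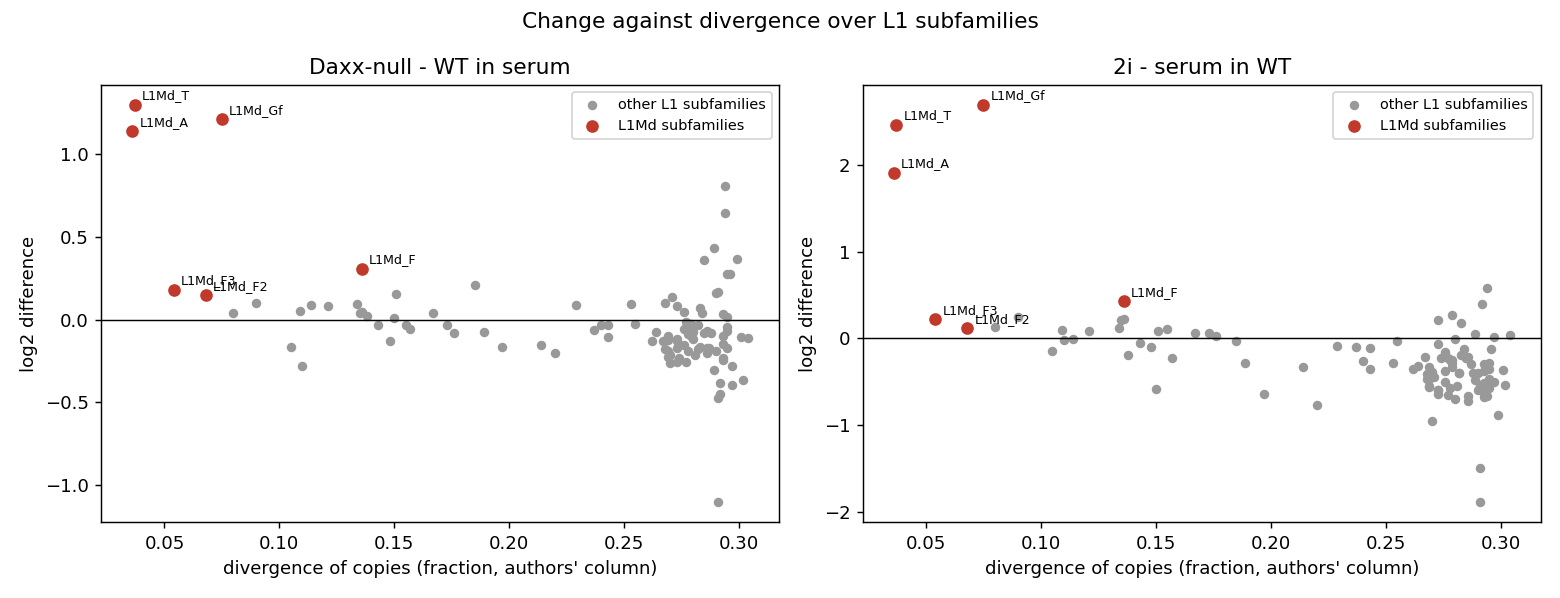
Log2 difference against divergence for 110 tested L1 subfamilies, for Daxx-null minus wild type in serum (left) and for 2i minus serum in wild type (right), with L1Md subfamilies in red. T, A and Gf lie at 1.14 to 1.30 on the left and at 1.91 to 2.69 on the right, while F2 and F3, of similar divergence, lie near the other L1 subfamilies.

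IAP elements, the endogenous retroviruses best known as targets of Trim28, Atrx and Daxx, gave another set of counts. Of 16 IAP subfamilies 3 were called higher and 2 lower in Daxx-null serum (median -0.02), where 3.59% and 7.29% of all subfamilies were. In 2i 11 were called higher and 0 lower (median 0.57), where 17.8% and 5.44% of all were. From serum to 2i in wild type 11 were called higher and 0 lower (median 0.44), where 9.84% and 50.5% of all were. Their median difference of the Daxx effect, 2i minus serum, was 0.67, whereas that of the L1Md members was -0.47. No test compared these groups.

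The subfamilies whose log2 values across the 18 libraries were most like the mean L1Md pattern were ORR1A0-int (Pearson r = 0.953), ORR1A0 (0.951) and ORR1A2-int (0.948), all MaLR retrotransposons, then MURVY-int (0.905) and MER89 (0.901), of family ERV1. The points share libraries, scaling and 3 cultures, so these are descriptions. ORR1A0-int had mean FPKM of 16.3 and 23.2 in wild-type and Daxx-null serum, 65.5 and 89.4 in the 2i groups, then 14.3 and 14.5 after retinoic acid. Among the members themselves r over libraries was 0.98 for T with Gf, 0.93 for T with A and 0.70 for A with F2.

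Genes known to act on L1 were followed in 3 lists, with 70 genes in the files, all tested among 18002 genes. The first holds 27 genes of chromatin silencing, the second 11 of DNA methylation and demethylation, the third 32 that act on L1 RNA or its copying. In Daxx-null serum 17 of 70 were called higher and 8 lower, where 9.29% and 18.9% of all genes were. The list median was 0.05, beside -0.12 for all genes. The higher count was 9 without replicate 3 of wild type, and the lower count was 4 to 6 without any one library. Among silencing genes 9 rose and 2 fell. Daxx, the deleted gene, is one that fell, and Atf7ip, the partner of Setdb1, rose from 181 ± 32.1 to 305 ± 5.95 FPKM (log2 0.77, adjusted p = 0.00106). Eed, a core subunit of Polycomb complex PRC2, rose from 535 ± 33.9 to 853 ± 49.3 (0.67, adjusted p = 0.00144). Of methylation genes 1 rose and 1 fell. Tet2 rose by 0.49 (adjusted p = 0.0142) and Tet3, at 22.4 ± 3.83 and 11.0 ± 4.06 FPKM, fell by 1.05 (0.0428), both being enzymes that oxidise 5-methylcytosine. Neither call held throughout. That of Tet3 was lost without any one of 5 serum libraries, all but replicate 3 of Daxx-null cells (adjusted p up to 0.206). It was also lost with no filter on low values (0.0863) and under quantile normalization (0.151). That of Tet2 was lost without replicate 2 of wild type (0.0538) or replicate 1 of Daxx-null cells (0.0587). Of RNA-acting genes 7 rose and 5 fell, among them Mettl3, which writes m6A (log2 0.78, adjusted p = 3.0e-04). Zc3hav1, an antiviral protein that binds L1 RNA, fell by 0.89 (0.00176), and Mov10l1, a helicase of the piRNA pathway, fell by 0.75 (0.0266). The last call was lost without replicates 1 or 2 of wild type (0.101 and 0.0674) or 2 or 3 of Daxx-null cells (0.0966 and 0.0903), and under quantile normalization (0.210).

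L1td1, a domesticated gene derived from an L1 open reading frame that marks pluripotent cells, had an order of groups unlike that of the elements. It stood at 1817, 1970 and 1706 FPKM in wild-type serum and at 2851, 2656 and 2718 in Daxx-null serum (log2 0.58, adjusted p = 0.268). In 2i it stood at 1393, 1464 and 962 in wild type and at 656, 462 and 717 in Daxx-null cells. This fall of 1.06 (adjusted p = 0.0296 by limma) was not called without replicates 1 or 2 of wild type (0.0781 and 0.0868). The same was true without replicate 2 of Daxx-null cells (0.0983), with no filter on low values (0.063) and under quantile normalization (0.0559). Leaving out both 2i libraries that stood apart also ended the call (0.0738). After retinoic acid L1td1 stood at 28.7, 23.1 and 94.6 in wild type and at 21.4, 11.3 and 13.0 in Daxx-null cells (log2 -1.41, adjusted p = 0.0638). In wild type it fell by 5.50 from serum to retinoic acid (3.9e-09). Groups did not overlap by genotype in any culture, and L1td1 was highest where L1Md_T and L1Md_A were intermediate.

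In Daxx-null 2i 16 of the 70 genes were called higher and 24 lower, where 31.5% and 15.3% of all genes were, and 12 of the 27 silencing genes fell while 5 rose. Daxx, the deleted gene, is among the 12 and the 24. Cbx3, an HP1 protein, fell from 266 ± 28.9 to 143 ± 33.0 FPKM (log2 -0.91, adjusted p = 4.9e-04), and Fam208b (Tasor2), a relative of a HUSH subunit, rose from 24.3 ± 16.0 to 101 ± 27.0 (2.34, 7.4e-04). Of methylation genes 2 rose and 6 fell. Dppa3, which hinders maintenance methylation, rose from 35.5 ± 19.7 to 349 ± 89.0 (3.46, 4.6e-06), Dnmt3a rose by 0.80 (1.6e-04) and Dnmt3l, the cofactor of de novo methylation, fell by 1.50 with overlapping values (0.0221). The call of Dnmt3l was lost without replicates 1 or 2 of wild type (0.0606 and 0.0932) or replicate 2 of Daxx-null cells (-0.99, adjusted p = 0.112). Of RNA-acting genes 9 rose and 6 fell. The piRNA pathway genes Mael and Piwil2 rose by 1.42 (6.2e-04) and 1.37 (0.00451).

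After retinoic acid 1 of 70 genes was called higher and 7 lower between genotypes, where 0.222% and 2.27% of all genes were. Daxx, the deleted gene, is among the 7 and was the only silencing gene called. Uhrf1, the cofactor of maintenance methylation, was the 1 higher (log2 0.40, adjusted p = 0.0362), a call lost without any one of the libraries except replicate 3 of Daxx-null cells (adjusted p up to 0.192). Of methylation genes Dnmt3l fell from 31.0 ± 27.0 to 2.22 ± 0.833 FPKM (-3.24, 0.00138). Its wild-type replicates were at 14.4, 16.3 and 62.2 FPKM. Tex19.1, a germline and placental protein that binds the L1 RNA-binding protein, fell from 28.2 ± 10.3 to 3.80 ± 1.03 (-2.71, 1.2e-04). Mov10l1 fell by 1.74 (3.9e-04) and Mael by 1.31 (0.0145). Mael was not called without replicate 1 of wild type (0.0654) or replicates 2 or 3 of Daxx-null cells (0.0626 and 0.0735). Quantile normalization ended its call too (0.0518).

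From serum to 2i in wild type 15 of the 70 genes rose and 22 fell, where 24.7% and 24.8% of all genes did. Dnmt3a fell from 128 ± 9.84 to 44.2 ± 4.37 FPKM (log2 -1.53, adjusted p = 1.6e-07), Dnmt3b from 492 ± 132 to 199 ± 48.2 (-1.30, 1.6e-04) and Dnmt3l from 716 ± 41.1 to 249 ± 113 (-1.63, 0.0130), while 5 of 11 methylation genes fell and 1 rose. Among silencing genes 8 rose and 8 fell, with Atf7ip up by 0.92 (7.3e-05), H3f3a, which encodes H3.3, at -0.68 (3.1e-04) and Fam208b at -1.50 (0.0132). Fam208b was not called without replicates 1 or 2 of wild-type serum (0.0508 and 0.0532), nor Dnmt3l without replicate 3 of wild-type 2i (0.0692). Of RNA-acting genes 6 rose and 9 fell: Zc3hav1 rose from 54.4 ± 3.07 to 225 ± 14.8 (2.04, 2.3e-07), Tex19.1 by 1.36 (0.00253), and Piwil4, of the nuclear piRNA pathway, fell by 2.50 (9.3e-06).

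From serum to retinoic acid in wild type 17 rose and 31 fell, where 30.4% and 34.1% of all genes did. Morc3 and Hells, both chromatin proteins with roles at repeats, fell by 1.44 (adjusted p = 2.3e-10) and 1.17 (1.0e-07), and Fam208b rose by 1.20 (0.0315). The call of Fam208b was lost without replicate 3 of wild-type serum (0.140) or any one of the retinoic acid replicates (adjusted p up to 0.0679). It was also lost with no filter on low values (0.069). Silencing genes split into 8 higher and 9 lower. Of methylation genes 3 rose and 7 fell, with Dppa3 at 55.2 ± 6.64 and 0.694 ± 0.164 FPKM (-5.55, 2.7e-09), Dnmt3l at -4.84 (4.5e-07) and Tet1 at -3.69 (6.6e-12). Of RNA-acting genes 6 rose and 15 fell, and Apobec3, a cytidine deaminase that restricts retroelements, fell from 417 ± 26.0 to 39.0 ± 6.54 (-3.41, 9.6e-12). Piwil4 fell by 3.72 (4.6e-08). Pluripotent cell markers fell alongside, from 25963 to 26973 FPKM in wild-type serum to 623 to 803 in wild-type retinoic acid, and their part in these changes was not tested.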

How the data were processed

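Per the labels' protocols, DNase-treated RNA went through an oligo(dT) step and then Ribo-Zero; the design text names only the latter, on total RNA. Strand and the treatment of multiply mapping reads, on which values of near-identical L1 copies rest, are not given in the sources used here. The tools were HOMER 4.8, Bowtie2 2.2.6 and limma on mm9, per the submitters' processing notes. The authors deposited FPKM for 906 repeat subfamilies and 24505 genes, on an inferred scale of about 10 M. Counting units were recovered from the steps between low values (100% whole within 0.1).

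Repeats were tested with limma 3.58.1 (R 4.3.3) on log2(FPKM + 0.526), a pseudocount set at the 5th percentile of non-zero values, in 864 subfamilies above 0 in at least 9 libraries. Genes were tested on log2(FPKM + 0.5), in 18002 genes at 1 FPKM or more in at least 3 libraries. A single fit with 6 group means held all 18 libraries, with a trend, and the Benjamini-Hochberg threshold of 0.05 was applied over all features of each of 9 repeat and 5 gene contrasts. Fold values are ratios of mean FPKM. The log2 scale with a pseudocount understates changes of low values such as those of the F subfamilies and of L1Md_Gf in retinoic acid. Named genes are Daxx, L1td1 and, per list and contrast, up to 3 called genes of largest change with a mean of at least 2 FPKM; 1 gene so chosen is not reported here. The fits were also run on simulated data with independent values per library, which cannot show effects of scaling, shared batches or composition. Members and lists were chosen with earlier results of these data known. Alternatives covered pseudocount, filter, scaling, fit, block and left-out libraries. The deposited quantile-normalized gene table was not used.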

Additional observations from a re-analysis of the deposited data

Results flagged for a closer look

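The effect of Daxx loss on 5 member and culture pairs differed from that in serum by limma's interaction test with Benjamini-Hochberg adjustment. From serum to 2i the effect of Daxx loss differed by -1.01 for L1Md_T (adjusted p = 0.0142) and by -1.15 for L1Md_Gf (0.0193). From serum to retinoic acid it differed by -1.67 for L1Md_T (0.00166), -1.25 for L1Md_A (0.0292) and -1.82 for L1Md_Gf (0.00511). In each of these members all 3 Daxx-null serum libraries were above all 3 wild-type ones. The 2i values overlapped between genotypes, and after retinoic acid those of T and Gf were lower in all 3 Daxx-null libraries. The same serum libraries enter both sets, so the 2 sets are not independent. Y-linked RNA differed between Daxx-null serum and Daxx-null 2i. For the 2i set, culture and a possible difference between subclones therefore cannot be told apart.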

How the results depend on the processing

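Over the 54 member effects, 1014 values were recomputed under alternatives: 930 kept direction and side of the threshold, 46 fell short of it, 19 newly passed it and 19 changed sign. With a pseudocount of 2, 1 member was called lower in each interaction (2i and retinoic acid minus serum). On the gene read set these counts were 0 and 1, and with only the groups compared they were 1 and 5. The 2 higher calls in Daxx-null 2i became 0 under quantile normalization, median-ratio scaling and the fit of the 2i groups alone, and that kind of fit called 1 member higher, L1Md_T, in wild-type retinoic acid. Quantile normalization gave 5 lower calls among host genes in Daxx-null serum, where the deposited values gave 8. The cause of these shifts was not tested.

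Signs turned in uncalled effects only. Under quantile normalization L1Md_Gf and L1Md_F had -0.002 and -0.0673 between genotypes in 2i, A, F3, F2 and F had 0.0856, 0.0067, 0.142 and 0.0540 in retinoic acid, F3 and F2 had -0.0809 and -0.122 in the 2i interaction, and F2 had -0.0832 from serum to retinoic acid in wild type. Median-ratio scaling gave Gf -0.0613 in 2i, F2 6e-04 between genotypes in retinoic acid, and T and F2 -0.0308 and -0.144 from serum to retinoic acid. For the last 2 the gene read set gave -0.19 and -0.26. As a share of transposon reads Gf had -0.0114 in 2i, and without the 2 libraries that stood apart -0.17. Leaving out 1 library gave Gf -0.22 to 0.26 there.

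Leaving out 1 library gave 3 members called higher in Daxx-null serum in every case, 1 to 3 called lower in the 2i interaction and 2 to 3 in that of retinoic acid, 4 to 6 called higher from serum to 2i in wild type and 5 to 6 in Daxx-null cells. Host genes called higher in Daxx-null serum numbered 9 to 13 and lower 4 to 6, and after retinoic acid 0 to 1 were called higher. Where this leaves 2 libraries in a group, the fit shares its spread over all groups.

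Deviations of same-numbered replicates were at most weakly correlated (45 pairs, correlations -0.34 to 0.28, 12 over 0.1, and all over it in 0 of 15 pairs of groups). The labels do not say what a number shares, and weak correlations cannot exclude pairing or a shared batch. A replicate block gave 2 host genes called higher after retinoic acid instead of 1. L1Md_F in serum then had an adjusted p of 0.0582. Each member rested on at least 1036 units per library.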
